A study of Caenorhabditis elegans with 2 samples.

Results

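The regions described here were 833 ChIP-seq peak candidates on the autosomes of Caenorhabditis elegans, each with its summit in the promoter window of protein-coding genes that all lie on 1 strand. In ChIP-seq, the DNA fixed to a chosen protein is isolated and sequenced, and a peak marks a locus with an excess of fragments. The regions were chosen by the signal and the position that the authors deposited for both replicates pooled. They had to rank among the 3000 strongest of 30000 pooled candidates, lie off the X chromosome, and have a summit between 1000 bp upstream and 200 bp downstream of an annotated transcript start. A region was left out when genes of both strands claimed its summit, which is called a divergent promoter here. The values that chose the regions are given below as a description, with no test.

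The protein was the product of C34B4.2, carried as a fusion with GFP and FLAG at its C terminus by the transgenic strain OP552, whose genotype is unc-119(tm4063) III; wgIs552. Whole first-stage (L1) larvae of mixed sex were used, taken 6 h after they had been synchronized by starvation that followed bleaching. An antibody against GFP was used per the sample descriptions, although the antibody label names C34B4.2 itself. There was 1 group of 2 biological replicates, so the files hold no second genotype, stage or treatment, and no untagged strain was analysed here. All values come from 1 transgenic line, and in whole animals the signal of different cell types is mixed. Read depth is unknown for both replicates, and the scale of the peak signal is not given in the sources used here.

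A promoter is the stretch of DNA before a gene where RNA polymerase and transcription factors assemble. Where neighbouring genes point away from each other they share a divergent promoter, and a factor bound there cannot be assigned to one of them. At a promoter of 1 strand the distance and the orientation of a bound site can be read along the gene. Many worm messages receive a trans-spliced leader, so an annotated start can lie downstream of the place where transcription begins.

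The sequences under the strongest regions are shown first because short GC-rich words were more frequent at the strongest summits than in promoter windows at large, although most of the 833 regions held none of the 5 words marked here. The 6-base word ACGCAG, searched on both strands, had been picked out in these data earlier. The windows below reach 50 bases to either side of the summit and read 5′ to 3′ along the gene. They were taken from the RefSeq copy of the WBcel235 assembly, which is the ce11 build of the files. Capitals mark ACGCAG or its reverse complement, and the genes are the strongest that hold it, leaving out the first chromosome.
Y82E9BR.3 (chrIII:1418848-1418948, plus strand): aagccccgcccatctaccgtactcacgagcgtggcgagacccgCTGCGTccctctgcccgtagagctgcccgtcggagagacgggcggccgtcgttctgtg
sec-61.G and F32D8.13 (chrV:10897308-10897408, minus strand): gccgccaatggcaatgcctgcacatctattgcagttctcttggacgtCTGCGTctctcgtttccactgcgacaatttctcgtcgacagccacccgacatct
eelo-2 (chrIV:17249854-17249954, plus strand): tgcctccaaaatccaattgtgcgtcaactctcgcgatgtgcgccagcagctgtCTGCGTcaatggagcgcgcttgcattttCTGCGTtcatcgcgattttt
ntl-11 (chrIV:15471550-15471650, minus strand): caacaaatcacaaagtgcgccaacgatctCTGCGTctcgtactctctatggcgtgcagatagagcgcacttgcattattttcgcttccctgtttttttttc
C34C12.8 (chrIII:3460202-3460302, plus strand): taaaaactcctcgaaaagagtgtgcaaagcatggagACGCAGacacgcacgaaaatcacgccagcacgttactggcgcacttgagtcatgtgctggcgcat
sco-1 (chrII:4299404-4299504, plus strand): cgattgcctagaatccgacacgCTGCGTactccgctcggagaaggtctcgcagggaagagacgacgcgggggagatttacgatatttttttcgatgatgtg
At Y39B6A.43 and Y73B6BL.29 the summit window overlapped an annotated UTR, and 30 bases around the word are shown.
Y39B6A.43 (chrV:18967841-18967870, minus strand): taacccgtggagACGCAGagaaagtgacgc
Y73B6BL.29 (chrIV:6321864-6321893, plus strand): caataatgtgttACGCAGagaaaacggtaa
In 5 of these 8 genes the word stood only on the strand opposite to the gene.

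The next windows are those of the strongest regions without ACGCAG, again leaving out the first chromosome. They are shown for contrast, with capitals for 4 related words searched on both strands, namely GACGCA and CGCGCA, and also GCGCAC and GCGTCA. Neighbouring words overlap by several bases, so 1 site can match more than 1 of them.
rpl-3 (chrIII:3867514-3867614, plus strand): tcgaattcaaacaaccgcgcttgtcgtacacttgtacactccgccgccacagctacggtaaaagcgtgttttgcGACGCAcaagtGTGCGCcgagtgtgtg
rpl-35 (chrIII:7854635-7854735, plus strand): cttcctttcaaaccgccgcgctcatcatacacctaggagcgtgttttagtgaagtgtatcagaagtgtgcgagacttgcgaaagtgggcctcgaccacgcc
cox-5A (chrIII:12905142-12905242, plus strand): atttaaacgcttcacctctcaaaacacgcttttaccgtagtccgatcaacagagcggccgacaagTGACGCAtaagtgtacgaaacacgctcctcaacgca
cdc-48.1 (chrII:10563515-10563615, minus strand): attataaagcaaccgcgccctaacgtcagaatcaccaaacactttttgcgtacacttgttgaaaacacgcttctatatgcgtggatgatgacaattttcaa
The windows at rpl-35 and cdc-48.1 held none of the 5 words. GC content was 54.5% at rpl-3, 53.5% at rpl-35, 48.5% at cox-5A and 39.6% at cdc-48.1, against 69.3% at Y82E9BR.3.

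The 3000 strongest pooled candidates included 299 on the X chromosome and 2701 on the autosomes. Of the autosomal candidates, 1673 had no promoter window at the summit, 195 lay in divergent promoters and 833 (30.8%, Wilson 95% interval 29.1 to 32.6) were one-strand regions. Intervals here and below cover counting error only. One-strand windows covered 24.4% of the autosomal sequence and divergent windows 2.68%. A single gene claimed the summit of 800 regions and a pair of genes on the same strand claimed the other 33. Altogether 805 genes had at least 1 region, which was 4.67% of the 17242 protein-coding genes on the autosomes.

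Of the 833 regions, 119 (14.3%, interval 12.1 to 16.8) were also in the authors' IDR-thresholded list. IDR, the irreproducible discovery rate, is a method that sets a cut by how alike peaks rank in replicate lists. A single region in the authors' list could still rank far apart, as that of C05C10.3 did at 16940 in replicate 1 and 137 in replicate 2. This list held ranks 1 to 267 of the pooled candidates, so it separated regions by the same pooled signal that chose them. The background was 9.22%, the share of all 2701 autosomal candidates in the list. Among divergent promoters 71 of 195 candidates (36.4%, interval 30 to 43.4) were thresholded, and outside promoter windows 59 of 1673 (3.53%, interval 2.74 to 4.52). The 119 regions are called the thresholded regions below, and the other 714 the lower-ranked regions. By gene, 125 of the 17242 (0.725%) had a thresholded region.

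The pooled signal of the 833 regions ran from 69.3 to 707 with a median of 79.5, in the authors' own unit. Thresholded regions had a median of 146 and started at 112. At the lower edge, the last regions inside the rank limit were those of F42A10.9 at rank 2992, of decr-1.3 at rank 2994 and of eat-6, an alpha subunit of the sodium pump, at rank 3000. Each had a signal of 69.3. The first one-strand candidates outside the limit were those of Y59A8B.24, of lin-28, an RNA-binding regulator of developmental timing, and of Y51H7C.7, also at 69.3. The rank limit therefore fell inside a continuous range of signal.

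The strongest region belonged to rpl-3, which encodes a protein of the large ribosomal subunit. Its peak spanned chrIII:3867455-3867671 in ce11, with the summit 290 bp upstream of the start. The pooled signal was 707, with 369.5 in replicate 1 and 339 in replicate 2. The second region was that of rpl-35, another protein of the large subunit, with a pooled signal of 575, 271 in replicate 1, 302 in replicate 2 and the summit 449 bp upstream. Both ribosomal protein genes thus stood above all other regions in the pooled list and in each replicate.

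Mitochondrial energy genes followed. Y82E9BR.3, which encodes the membrane subunit c of ATP synthase, had a pooled signal of 468, with 193 in replicate 1 and 280.3 in replicate 2, and its summit 298 bp upstream. The region of cox-5A, a subunit of cytochrome c oxidase, had 430.2, with 196 and 224 in replicates 1 and 2, at 299 bp upstream. The region of cts-1, citrate synthase, had 273, with 138 in each replicate. The region of cox-5B, another oxidase subunit, had 256, but its replicates stood further apart at 90.6 and 174.

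Protein handling was represented by 3 of the next strongest regions. The region of cdc-48.1, an ATPase that extracts ubiquitin-tagged proteins, had 417, with 185 and 236 in replicates 1 and 2. A single region with 397 lay 215 bp upstream of sec-61.G, a subunit of the translocon that threads proteins into the endoplasmic reticulum, and 815 bp upstream of F32D8.13. The region of ubc-9, the SUMO-conjugating enzyme, had 385, with 203 and 182 in the replicates, at chrIV:4650712-4650881.

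Further down the first 20, several regions lay at genes of RNA metabolism and gene control. The region of eif-3.C, a subunit of translation initiation factor eIF3, had 260.2, with 133 in replicate 1 and 126 in replicate 2. That of cmtr-1, an mRNA cap methyltransferase, had 277, and that of sqd-1, an RNA-binding protein of the hnRNP family, had 276 with replicates at 96.0 and 175. The region of ntl-11, a subunit of the CCR4-NOT deadenylase complex, had 297, and that of ints-4, a subunit of the Integrator complex, had 322. Among the 20, ints-4 was the only gene with its summit downstream of the start, by 39 bp.

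The region of lin-9, a component of the DREAM complex that represses cell cycle genes, had 335. The region of tos-1, whose transcript is used as a reporter of alternative splicing, had 344 with its summit 89 bp upstream. A region with 278 lay 82 bp upstream of egl-30, the alpha subunit of a Gq protein, and was shared with C53H9.4. The regions of eelo-2 and C34C12.8 had 356 and 274. The region of egg-5, a pseudophosphatase of the oocyte to embryo transition, had 294 in the pool and 162 in replicate 2, with no matching candidate in replicate 1. In 19 of the 20 strongest regions both replicates had a candidate within 100 bp of the pooled summit.

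**Figure D1:**
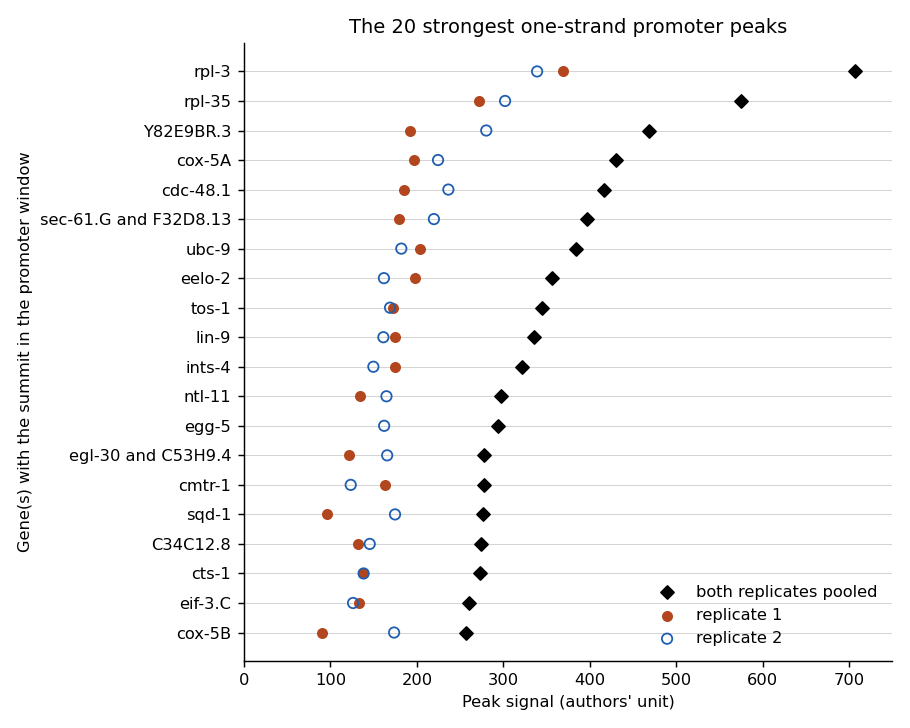
Pooled, replicate 1 and replicate 2 signal (authors' unit, horizontal axis) of the 20 strongest one-strand regions, labelled by the genes that claim the summit. The pooled signal falls from 707 at rpl-3 to 256 at cox-5B, and egg-5 has no point for replicate 1.

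Summits of the thresholded regions gathered just upstream of the start, and those of lower-ranked regions did not. The median thresholded summit was 240 bp upstream of the nearest start, with quartiles of −387.5 and −109.5 bp. Of the 119, 82 (68.9%, interval 60.1 to 76.5) lay 0 to 400 bp upstream. Of the 714 lower-ranked regions, 206 (28.9%, interval 25.6 to 32.3) lay there. A census of one-strand windows, at evenly spaced positions, put 34% of 199342 positions in the same stretch. Downstream of the start lay 8 thresholded summits (6.72%) and 179 lower-ranked summits (25.1%). The rule fixed the outer limits of the window and left out summits claimed by genes of both strands, and the nearest start gave the position. Within these limits the placement could vary with rank.

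The share 0 to 400 bp upstream also differed inside the thresholded list, which was divided after the values were seen. It was 48 of 59 (81.4%, interval 69.6 to 89.3) for the stronger regions, at ranks 4 to 146, and 34 of 60 (56.7%, interval 44.1 to 68.4) for the weaker ones, at ranks 149 to 266. The share 0 to 400 bp upstream was 32.1% at ranks 268 to 1000, 27.7% at ranks 1001 to 2000 and 27.1% at ranks 2001 to 3000. For the 5815 one-strand candidates at ranks over 3000 it was 28.8%. Divergent promoters with thresholded summits had 83.1% there, with a window geometry of their own.

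**Figure D2:**
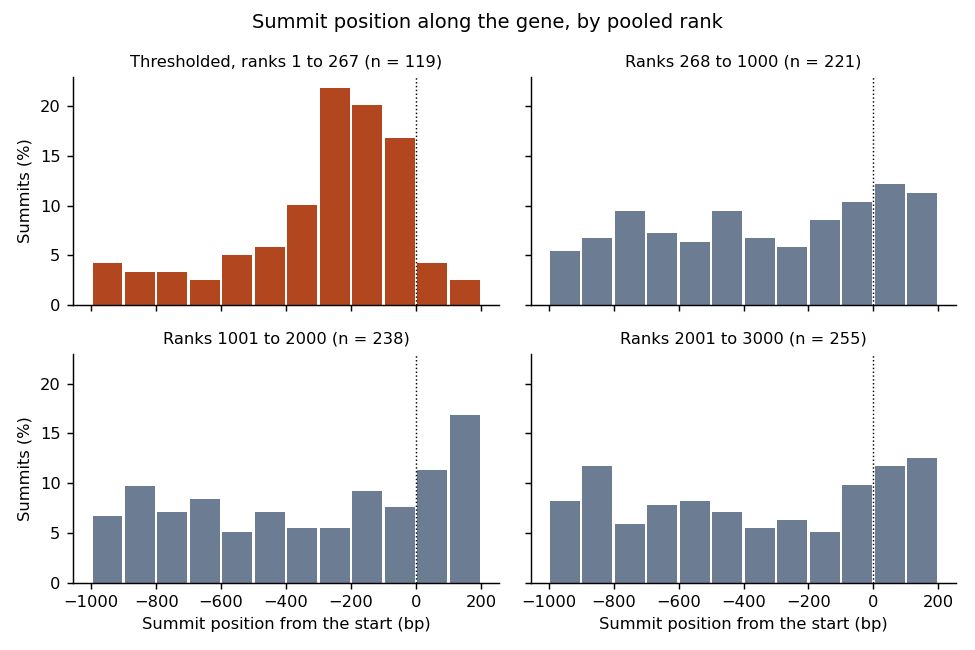
Share of summits (vertical axis, %) by position from the transcript start (horizontal axis, bp in bins of 100 bp, negative upstream) for thresholded regions and 3 lower rank classes. The thresholded bins between −300 and 0 bp hold 21.8%, 20.2% and 16.8% of the 119 summits, and the lower classes are spread over the window.

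The annotation at the summit differed in the same way. Of the thresholded summits, 92 (77.3%, interval 69.0 to 83.9) lay outside protein-coding genes, 13 in introns, 10 (8.40%) in coding exons, 3 in 5′ UTRs and 1 in a 3′ UTR. Of the lower-ranked summits, 235 (32.9%, interval 29.6 to 36.4) lay outside genes, 176 (24.6%) in introns and 248 (34.7%, interval 31.3 to 38.3) in coding exons. The census of window positions gave 44.4% outside genes, 24.3% in introns and 22.9% in coding exons. Lower-ranked summits were thus in coding exons more often than window positions were, and thresholded summits less often. Summits inside the body of a gene other than the one assigned numbered 7 (5.88%) among thresholded and 164 (23.0%) among lower-ranked regions. Among the strongest of these was the region of rpl-24.2, a member of the ribosomal L24 protein family, whose summit with a signal of 230.0 lay in an intron of C03D6.1.

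Many genes have internal starts, and these account for a share of the assignments. For 200 of the 833 regions (24.0%) the summit lay only in windows of internal starts, not in that of the most upstream start of the gene. This held for 12 thresholded (10.1%) and 188 lower-ranked regions (26.3%). Among regions in the window of the most upstream start, 75 of 107 thresholded summits (70.1%) and 146 of 526 lower-ranked summits (27.8%) lay 0 to 400 bp upstream of the nearest start.

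The gene upstream of the assigned gene pointed the same way in 514 regions (61.7%) and the opposite way in 319 (38.3%). For thresholded regions the counts were 79 (66.4%) and 40 (33.6%). The median distance to a neighbour on the same strand was 822 bp over all regions and 534 bp for thresholded ones. The median distance to a neighbour on the opposite strand was 2409 bp and 2471.5 bp, a gap that the exclusion of divergent windows lengthens.

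By chromosome, the regions numbered 180 on I, 157 on II, 166 on III, 169 on IV and 161 on V. Per Mb of one-strand window this was 53.4 on I, 39.4 on II, 55.6 on III, 41.3 on IV and 28.3 on V. Chromosome V, which carries many chemoreceptor and other expanded gene families, was lowest. Thresholded regions numbered 29, 26, 23, 25 and 16 in the same order.

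Most genes had a single region. There were 752 genes with 1, 47 with 2, 4 with 3 and 2 with 4 summits in their windows. Y65A5A.2 had summits 780, 542, 299 and 21 bp upstream, with pooled signals of 122, 96.1, 143 and 90.9. The region at −299 bp had 77.3 in replicate 1 and 59.8 in replicate 2. nurf-1, the largest subunit of the NURF chromatin remodeller, had 4 summits with signals of 70.5 to 99.4, at −376, −297, −230 and 197 bp from the nearest of its starts. gei-4, mnk-1, a MAP kinase-interacting kinase, and pqn-41 had 3 each, none of them thresholded. srh-2, a chemoreceptor-type gene, also had 3, of which that with 156 was thresholded. No neighbouring summits lay within 150 bp of each other and 16 pairs lay within 300 bp. Peaks had a width of 370 bp in 815 regions, and all 18 narrower peaks were thresholded.

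Each region was matched to the strongest candidate of a replicate whose summit lay within 100 bp. The pooled list was built from both replicates, so these values describe and do not test the regions. Replicate 1 had a candidate at 751 regions and replicate 2 at 704. Both had one at 625 (75.0%, interval 72.0 to 77.9), replicate 1 alone at 126, replicate 2 alone at 79 and neither at 3. Most regions were therefore present in each replicate list. Among thresholded regions 113 (95%, interval 89.4 to 97.7) had both, and among lower-ranked regions 512 (71.7%) did. For one-strand candidates at ranks over 3000 the share was 17.6%. Matched summits lay a median of 5 bp from the pooled summit in replicate 1 and 9 bp in replicate 2. At 22 regions the summits of both replicates lay on the identical base.

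The 6 thresholded regions without a candidate in both replicates were those of egg-5, Y39E4B.6, T26A8.4, kel-3, cyc-2.1 and Y37D8A.16. Replicate 2 alone had a candidate at egg-5, at Y39E4B.6 with a signal of 79.0, at kel-3 with 95.3 and at cyc-2.1 with 66.3. Replicate 1 alone had one at T26A8.4 with 93.7 and at Y37D8A.16 with 87.0. The candidate lists ended at signals of 24.7 in replicate 1 and 20.1 in replicate 2, so a region without a candidate had a lower signal there or its summit over 100 bp away.

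Replicate 1 gave slightly higher signals than replicate 2 at the lower-ranked regions. Over the 625 regions with both, the median log2 ratio of replicate 1 to replicate 2 was 0.24 (SD 0.59 between regions). For thresholded regions it was −0.01 (SD 0.53), and for the 3 lower rank classes it lay between 0.25 and 0.32. The ratio passed 2-fold in 75 regions, 69 of them higher in replicate 1 and 6 higher in replicate 2. The authors' depth normalization is not given, and whether a difference in scale between the lists had a part in the shift was not tested.

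The largest ratios came from weak values in 1 replicate. A second region of kel-3, 920 bp upstream, had 87.0 in replicate 1 and 22.0 in replicate 2, a log2 ratio of 1.99. The region of air-1, an Aurora kinase, had 75.0 and 21.1, and that of mak-1, a MAPK-activated protein kinase, had 66.0 and 20.6. In the other direction, the region of cbp-1, a CBP/p300 histone acetyltransferase, had 37.5 in replicate 1 and 107 in replicate 2, a log2 ratio of −1.52. C05C10.3 had 30.1 and 81.1, and hrpu-2, an hnRNP U-like RNA-binding protein, had 28.3 and 64.0.

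Within the thresholded regions the signals of the replicates rose together, with Spearman's rho of 0.52 across 113 regions of the same 2 libraries. Within the lower rank classes rho was −0.62, −0.69 and −0.77. A narrow range of pooled signal leaves a region that is high in one replicate low in the other, and the classes were cut on that pooled signal. Over all 625 regions rho was 0.14. Among the 833 regions, 181 (21.7%) ranked in the first 3000 of both replicate lists, and 105 of these were thresholded.

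**Figure D3:**
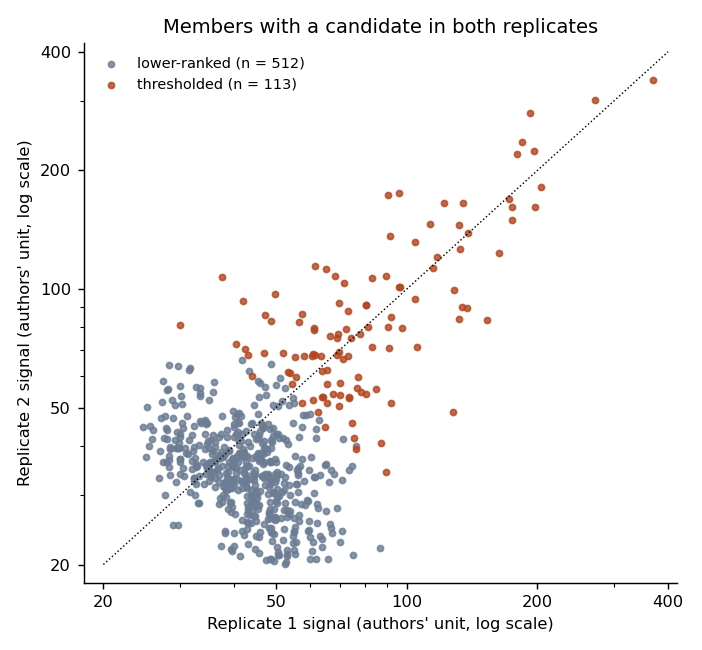
Replicate 2 signal against replicate 1 signal (authors' unit, both axes on a log scale) of the 625 regions with a candidate in both replicates; the dotted line marks equal values. The 113 thresholded regions spread along the line and the 512 lower-ranked regions form a band across it.

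GC content peaked at the summit. Within 50 bp of the summit, thresholded regions had a mean GC content of 48.0% ± 7.15 (SD, n = 119 regions). Windows centred 300 bp upstream and downstream along the gene had 35.4% ± 7.98 and 38.0% ± 7.40. The 3 lower rank classes had means of 42.5%, 41.8% and 42.0% at the summit. One-strand candidates at ranks over 3000 had 39.1%, and the census windows 35.2%. Thresholded summits of divergent promoters had 50.1% ± 7.71 and those outside promoter windows 49.6% ± 7.30, within 1 SD of the one-strand regions. GC content moves with the yield of sequencing libraries, and its part in the signal was not tested.

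**Figure D4:**
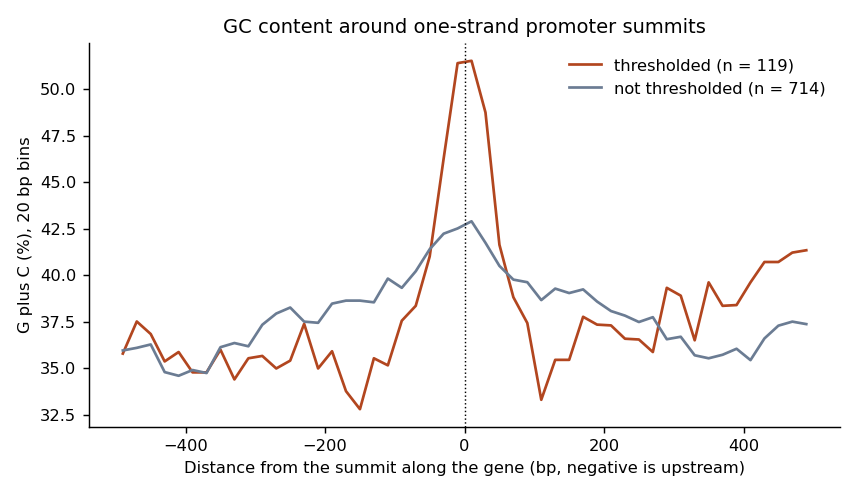
Mean G plus C content (vertical axis, %, bins of 20 bp) against the distance from the summit along the gene (horizontal axis, bp, negative upstream) for 119 thresholded and 714 lower-ranked regions. Both lines peak at the summit; the axis does not start at 0. Within 50 bp of the summit the thresholded mean is 48.0%.

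The words printed above were more frequent at thresholded summits than at lower-ranked ones or in the windows at large. ACGCAG stood within 50 bp of the summit in 20 of 119 thresholded regions (16.8%, interval 11.2 to 24.5) and in 33 of 714 lower-ranked ones (4.62%). It occurred in 2.16% of all one-strand windows of the same length. At 300 bp to either side of the thresholded summits it was in 1 of 119 windows each (0.840%). Over all 833 regions it was in 53 summit windows (6.36%), in 32 of the windows 300 bp upstream (3.84%) and in 16 of those downstream (1.92%). GACGCA was in 20.2% of thresholded windows against 2.29% of all windows, and CGCGCA in 18.5% against 1.52%. GCGCAC was in 20.2% against 1.38%, and GCGTCA in 20.2% against 1.82%. At least 1 of the 5 words was present in 63 of the 119 thresholded and in 102 of the 714 lower-ranked regions.

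The frequency of ACGCAG was lower at lower ranks. Inside the thresholded list it was 13 of 59 (22.0%, interval 13.4 to 34.1) for the stronger regions and 7 of 60 (11.7%, interval 5.77 to 22.2) for the weaker ones, and these intervals overlapped. It was 5.88% at ranks 268 to 1000, 4.2% at ranks 1001 to 2000, 3.92% at ranks 2001 to 3000 and 2.79% at ranks over 3000. Divergent promoters with thresholded summits had it in 14 of 71 windows (19.7%, interval 12.1 to 30.4), and thresholded summits outside promoter windows in 12 of 59 (20.3%, interval 12 to 32.3). The intervals of the 3 classes overlapped. Within the thresholded regions, the 20 with ACGCAG had a median signal of 166 and a mean GC content of 51.4% ± 5.77, and the 99 without it 145 and 47.3% ± 7.23. The higher signal of all these sequences and their higher GC content moved together, and their parts cannot be told apart here.

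The word had no fixed orientation to the gene. Over all regions it stood on the gene's strand in 25 windows and on the other strand in 29, and over thresholded regions in 11 and 9. Copies in the thresholded regions were densest in the 25 bp just upstream of the summit, with 11 copies. ACGCAG and GACGCA overlap by 5 bases, and of 83 regions with either word 35 had both, 18 only ACGCAG and 30 only GACGCA.

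Other words fixed for the search behaved differently from one another. TATAAA, the core of the TATA box, was in 5.88% of thresholded windows, 7.14% of lower-ranked and 12.1% of all windows. CCAAT was in 10.1%, 20.6% and 20.1%, and TTTCAG, the 3′ splice site of worm introns and trans-splice acceptors, in 10.1%, 17.8% and 20.2%. CACGTG, the E-box, was in 2.52%, 2.52% and 1.83%. GGGCGG, a GC-box core, was in 7.56%, 2.80% and 1.90%. GAGAGA was in 12.6%, 9.52% and 5.91%. TATAAA and CCAAT, and likewise TTTCAG, were thus less frequent at thresholded summits than in the windows at large, and GGGCGG and GAGAGA more frequent. A match is a description of letters and names no binding protein.

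Genes of translation were among the strongest regions, and most of the listed genes had no region. Counts are of genes with at least 1 region, to be read against 4.67% of all genes for any region and 0.725% for a thresholded one. The intervals make no allowance for the 32 lists compared, and the lists were written with earlier results of these data known. An interval above or below 4.67% is therefore a description and not a test. Large ribosomal subunit genes had 6 of 48 (12.5%, interval 5.86 to 24.7), with 3 thresholded at rpl-3, rpl-35 and rpl-24.2. Small subunit genes had 3 of 31, namely rps-28 with 141, rps-11 with 109 and rps-2 with 72.3. Translation factors had 8 of 38 (21.1%, interval 11.1 to 36.3), the strongest being eif-3.C, eif-3.B with 112 and ife-3, a cap-binding eIF4E protein, with 102. Only 2 of the 8, eif-3.C and eif-3.B, had a thresholded region. The summit counted for ife-3 lay 808 bp upstream of it and nearer to B0348.10, 103 bp downstream of that start. The strongest summits of eif-2D and eif-2Bgamma lay 635 and 728 bp upstream, inside the bodies of other genes. The intervals of large subunit genes and translation factors lay above 4.67%. That of small subunit genes (3.35 to 24.9) included it. Mitochondrial ribosomal proteins had 4 of 70 (5.71%, interval 2.24 to 13.8), namely mrpl-28 with 127, mrpl-55, mrpl-23 and mrpl-46. Aminoacyl-tRNA synthetases had 2 of 32 (6.25%, interval 1.73 to 20.1), nars-1 and fars-3, at 74.8 and 74.7 near the lower edge of signal. Ribosome assembly genes had 2 of 26 (7.69%, interval 2.14 to 24.1), pro-1 and nol-56. The intervals of mitochondrial ribosomal proteins, synthetases and ribosome assembly genes included 4.67%. Another 9 large subunit and 9 small subunit genes had a divergent summit and were not counted.

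Respiratory chain and ATP synthase genes had 7 of 48 (14.6%, interval 7.25 to 27.2), 4 of them thresholded. These were cox-5A and cox-5B, the cytochrome c gene cyc-2.1 with 123, and cox-6A, an oxidase subunit, with 119. The summit at cyc-2.1 lay in a coding exon within the body of another gene, rpl-20, and only replicate 2 had a candidate there. The summit at cox-6A lay 812 bp upstream, 14 bp from an annotated small RNA gene, and had 89.3 in replicate 1 and 34.4 in replicate 2. Y82E9BR.3 carries a sequence name and was outside the list, so the count leaves out the region with 468. Mitochondrial carriers and import genes had 4 of 26 (15.4%, interval 6.15 to 33.5), namely tomm-20, an import receptor of the outer membrane, with 133, timm-17B.1, tomm-40 and tin-9.2. V-ATPase genes, which acidify organelles, had 3 of 18 (16.7%, interval 5.84 to 39.2), none thresholded, with vha-2 highest at 96.9, then vha-13 and vha-9. The intervals of these 3 lists lay above 4.67%.

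Genes of protein quality control and transport also had regions. Heat shock and chaperonin genes had 7 of 61 (11.5%, interval 5.67 to 21.8), with hsp-1, the constitutive Hsp70, at 193, dnj-9, a J-domain co-chaperone, at 141 and pfd-6, a prefoldin subunit, at 129. Secretory pathway genes had 9 of 56 (16.1%, interval 8.69 to 27.8), led by sec-61.G, by sec-24.1, a COPII coat subunit, with 128 and by rab-30 with 82.7. Proteasome genes had 4 of 33 (interval 4.82 to 27.3), namely pas-5, rpn-10, pbs-5 and pbs-7, of which pas-5 was thresholded with 132 and its summit 919 bp upstream. The intervals of these 3 lists lay above 4.67%, that of the proteasome by a small margin. The ubiquitin and SUMO list had 3 of 63 (4.76%, interval 1.63 to 13.1), close to the background of 4.67%. These were cdc-48.1, ubc-9 and smo-1, the SUMO gene, with 79.8. The list of insulin, TOR and autophagy genes had 5 of 28 (17.9%, interval 7.88 to 35.6), above 4.67%. The strongest of these was lgg-1, the worm Atg8 protein, with 143, followed by atg-3, lgg-2, rsks-1 and daf-16, the last at 70.1.

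Among lists of nuclear functions, splicing genes had 6 of 50 (12%, interval 5.62 to 23.8), above 4.67%. The strongest were mog-4, a splicing helicase, at 159, snr-4, an Sm protein of the spliceosome, at 125 and rsp-1, an SR protein, at 78.8. The summit of snr-4 lay 559 bp upstream, 21 bp from an annotated small RNA gene. Cell cycle and replication genes had 6 of 61 (9.84%, interval 4.59 to 19.8), an interval that included 4.67%. Their strongest were pcn-1, the PCNA sliding clamp, at 239.9 and then rpa-2, a subunit of the single-strand binding protein RPA, at 108 and cdk-14 at 97.4. Most genes of these lists had no region. DNA repair genes had 3 of 51 (5.88%, interval 2.02 to 15.9), with mrt-2, a checkpoint clamp subunit, at 152, then mus-81 and rcq-5. Histone genes had 4 of 76 (5.26%, interval 2.07 to 12.8), with his-37 at 176, then his-42, his-69 and his-72. The regions of rcq-5 and his-69 were the same peak. The list named for germline RNA regulators had 3 of 46 (6.52%, interval 2.24 to 17.5), an interval that included 4.67%. All 3 were genes named as chondroitin proteoglycans (cpg-24, cpg-8 and cpg-9), so no RNA regulator of that list had a region.

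Large families of receptor and immune-related genes had few regions. Chemoreceptor-type GPCRs had 13 of 1276 (1.02%, interval 0.596 to 1.74), with srh-2 thresholded at 156, its summit 93 bp downstream of the start, then sru-24 with 89.4 and srh-308 with 77.3. C-type lectins had 2 of 237 (0.844%), clec-67 and clec-104. F-box proteins had 5 of 305 (1.64%, interval 0.702 to 3.78), with fbxa-83 thresholded at 126 and fbxa-66, fbxa-63, fbxa-176 and fbxc-43 lower. The summit of fbxa-83 lay 791 bp upstream, 53 bp from an annotated small RNA gene. These 3 intervals lay below 4.67%, that of the lectins ending at 3.02. Collagens had 4 of 147 (interval 1.06 to 6.79), col-63, cle-1, col-84 and col-42. No region lay at any of 67 cytochrome P450 genes or 37 insulin-like peptide genes, which allows up to 5.42% and 9.41% by the Wilson interval. UDP-glucuronosyltransferases had 1 of 63 (1.59%, interval 0.281 to 8.46), ugt-61, and glutathione S-transferases 1 of 44 (2.27%, interval 0.402 to 11.8), gst-5. Neuropeptide genes had 2 of 70 (2.86%, interval 0.787 to 9.83), flp-16 and flp-15. These intervals and that of the collagens included 4.67%.

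In the 3 lists named for transcription factors, with 246, 66 and 49 genes, no gene had a thresholded region. At the background of 0.725%, lists of these sizes would also hold few such genes, so this absence is close to that share. Transcription factors outside these lists were not counted. Nuclear hormone receptors had 11 of 246 (4.47%, interval 2.51 to 7.83), close to the background of 4.67%, led by nhr-154 with 88.3, nhr-34 with 82.1 and nhr-95 with 76.4. The list of bHLH and bZIP factors had 6 of 49 (12.2%, interval 5.73 to 24.2), above 4.67%, led by zip-1 with 92.7, atf-7 with 89.7 and the CREB homologue crh-1 with 87.8. The homeobox list had 5 of 66 (7.58%, interval 3.28 to 16.5), lim-8, ttx-1, ceh-45, ceh-82 and ttx-7. At least lim-8 and ttx-7, which encodes an inositol monophosphatase, have no homeodomain. The share is therefore one of listed gene names and not of homeodomain genes. Muscle structure genes had 4 of 33 (12.1%, interval 4.82 to 27.3), the same count as the proteasome and above 4.67% by the same small margin. None was thresholded. They were unc-60, act-3, lev-11 and unc-52, with unc-60, an actin-depolymerizing factor, highest at 93.7. Genes with only a sequence name made up 36.3% of the 805 genes and 44.5% of all autosomal protein-coding genes.

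**Figure D5:**
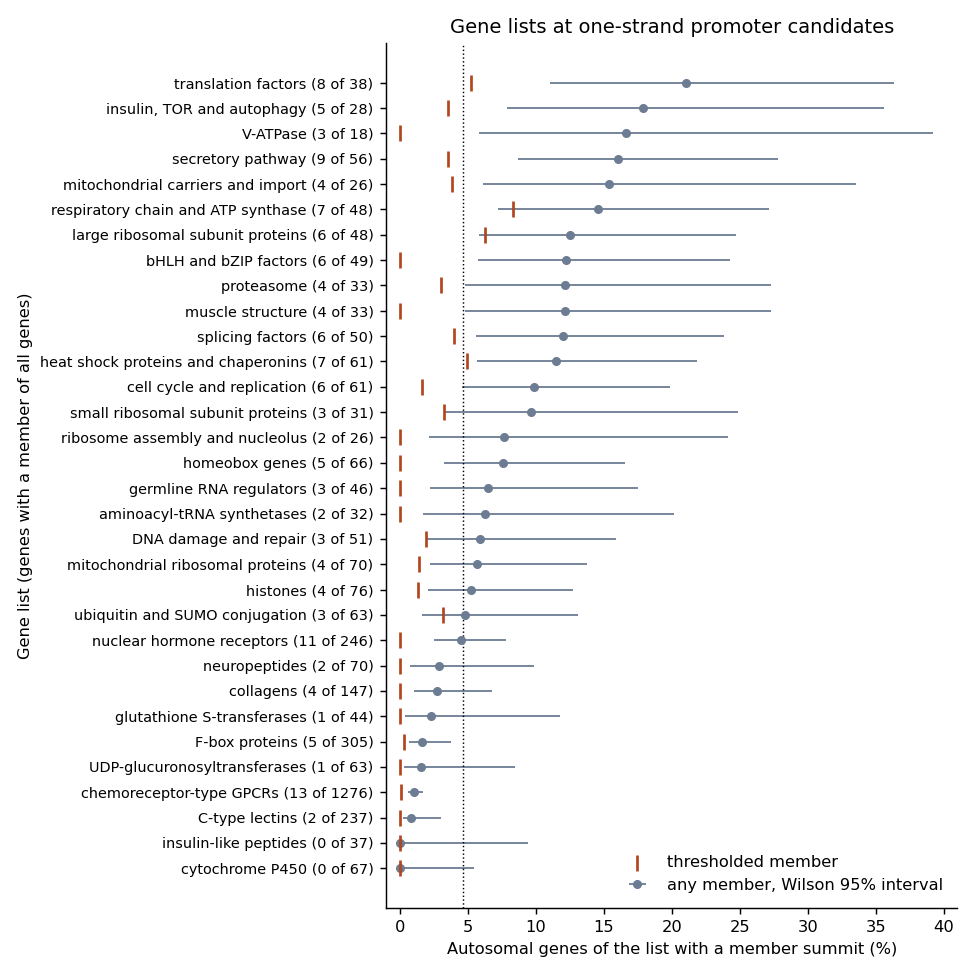
Share of autosomal genes of each list with a one-strand region (points, %, bars are Wilson 95% intervals for counting error) and with a thresholded region (ticks). The dotted line is the 4.67% of all autosomal protein-coding genes; translation factors are highest at 21.1%, and insulin-like peptides and cytochrome P450 genes are at 0.

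Some summits lay close to annotated small RNA genes. Within 200 bp of the summit, 33 regions (3.96%, interval 2.83 to 5.51) had a small RNA gene, against 0.598% of the 199342 window positions of the census. Of these, 12 were thresholded (10.1% of 119, interval 5.86 to 16.8). In 2 of the 33 the assigned coding start was nearer to the summit than the small RNA gene. These were snoRNA genes at 19 regions, snRNA genes, which here include spliced leader genes, at 9, tRNA genes at 3 and miRNA genes at 2. Both strong regions assigned to egg-5, with signals of 294 and 237 and summits 560 and 765 bp upstream, lay 57 and 39 bp from sls-2.4, a spliced leader RNA gene, and their peaks overlapped. The region of H41C03.3, with 256 and its summit 949 bp upstream, lay 37 bp from sls-2.1, of the same class. The region of cmtr-1 lay 34 bp from Y53F4B.47. The region of pcyt-2.1 with 200.1 lay 92 bp from Y37E3.20, and that of F59C6.18 with 160.2 lay 45 bp from F59C6.15, all 3 of them snoRNA genes. Regions counted in the gene lists were also among the 33. The far upstream summits of pas-5, cox-6A, snr-4 and fbxa-83 lay 0, 14, 21 and 53 bp from a small RNA gene. Summits of his-42, his-72, mrpl-23 and eif-2Bgamma were also within 200 bp of one.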

How the data were processed

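Per the labels, ChIP-seq was made from 2 biological replicates of 1 group. The authors deposited, for each replicate and for the pool, 30000 candidate peaks and background regions as input for the IDR method, and 1 IDR-thresholded list. Used here were the signal value that the authors deposited for each peak and their offset in bases between peak start and summit. No source used here gives the aligner, peak caller, IDR threshold or depth, so the precision of single signals is unknown. Each candidate list names a control library, per the labels' descriptions.

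Signals ranked the pooled ce11 list, which had 0 tied values. Starts of protein-coding transcripts came from Ensembl release 115 and bases from the RefSeq copy of WBcel235. Its chromosome names and lengths were compared with the files, and 0 peaks ran past an end. Where several starts of a gene claimed a summit, the nearest gave its position. Replicate candidates were matched within 100 bp. Motifs were 17 words on both strands, and gene lists were 32 sets of gene names. Shares have Wilson intervals at 95%, from Python 3.11.15 with numpy 2.4.6, pandas 2.3.3 and matplotlib 3.10.9. With 1 group and regions chosen by signal, no test was made. The steps were tested on simulated data.

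The regions, the gene lists and the words were chosen with earlier results of these data known. Genes were named by a rule: the 20 strongest regions, both edges of the rank limit, the 3 strongest genes of each list (all where a list had at most 5), the 5 genes with most summits, the 3 highest and 3 lowest replicate ratios, the 8 strongest regions with ACGCAG outside chromosome I, and the 5 strongest regions near small RNA genes. Others, among them genes without a candidate in both replicates, were named after their values were seen. Alternatives changed the rank limit, the window, the starts used, the matching distance, the sequence window, the merging of summits and the replicate list.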

Additional observations from a re-analysis of the deposited data

How the results depend on the processing

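Of 70 alternative values for 11 results, 34 stayed within the limits set for the main value and 36 moved. The limits were the interval for shares and a fixed factor for the number of regions. For position and GC content the limit was the SD between the 2 replicate lists, which are themselves among the alternatives. For the log2 ratio it was the SD of 0.59 between regions. Its alternatives, at 0.19 to 0.28, lay far inside that limit and say little about stability. A reversal of direction was not looked for. With a rank limit of 1000 there were 340 regions, the one-strand share of promoter summits was 73.8%, the median position −257 bp, the thresholded share 35%, the share with both replicates 82.6%, the ACGCAG share 9.71%, GC content 44.4% and the gene share 1.96%. With a limit of 2000 the one-strand share was 77.2%, the position −272.5 bp, the thresholded share 20.6%, both replicates 80.4%, GC content 43.4% and the gene share 3.32%. A window from 500 bp upstream to 100 bp downstream gave 512 regions, a one-strand share of 84.2%, −162 bp, 21.7% thresholded, 8.98% with ACGCAG, 43.6% GC and 2.91% of genes. With the most upstream start of each gene only, the one-strand share was 78.4%, the position −339 bp, the thresholded share 16.9%, GC content 42.9% and the gene share 3.77%. Both replicates had a candidate at 57.6% of regions within 50 bp and at 92.3% by shared intervals. Within 25 bp of the summit ACGCAG was in 3.72% and GC content was 43.9%, and within 100 bp they were 9.24% and 41.3%. Ranking each replicate alone, which leaves the other replicate out, gave 811 to 839 regions, one-strand shares of 79.6% to 82.4%, positions of −304 to −298 bp, ACGCAG in 4.29% to 5.92%, GC content of 41.7% to 41.9%, thresholded shares of 13.6% to 15.8% and 4.56% to 4.77% of genes. Merging summits within 150 bp could change no value, because no neighbouring summits lay that close. Its values are counted among the 34 and say nothing about how stable the results are. In 2 alternatives chosen after seeing the data, the first 267 ranks of each replicate had 62.6% to 72.0% of one-strand summits 0 to 400 bp upstream and 12.2% to 21.5% with ACGCAG. The cause of these shifts was not tested, and depth limits are unknown because the files hold no read counts.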

Other observations

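Some longer words were noticed in the printed sequences or counted after the data were seen, so they are given as counts only. AACACGCT, on either strand, was in all 4 printed windows that lack ACGCAG, those of rpl-3, rpl-35, cox-5A and cdc-48.1. It stood within 50 bp of the summit in 8 of 119 thresholded regions (6.72%, Wilson 95% interval 3.45 to 12.7) and in 2 of 714 lower-ranked ones (0.280%, interval 0.0769 to 1.02). The 8 include the 4 printed windows, so their share is not independent of how the word was found. Among all one-strand windows of the same length it was in 303 of 199342 (0.152%). The other 4 thresholded regions were those of Y39B6A.43 with a signal of 226, scc-2, a cohesin loader subunit, with 181, tba-2, an alpha tubulin, with 176, and mrpl-28 with 127. Of the 8, 1 also held ACGCAG. All 10 regions with the word had a candidate in both replicates.

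The word of 10 bases with the highest count at the summits, among those with all 4 bases, was ACTCCTCTCG or its reverse complement. It was in 17 of the 833 regions (2.04%), 11 of them thresholded, against 0.0507% of the 199342 one-strand windows, 3 of 1666 windows centred 300 bp to either side of the same summits, and 7 of 195 divergent summits. Among the strongest holders were Y73B6BL.29 with a signal of 203 and mrt-2 with 152. A word shared at this length can belong to a repeated element, on which reads map to several places, and its part was not tested. Lower case letters in the reference file, which mark masked sequence, covered a mean of 20.2% of the thresholded windows, 22.4% of the lower-ranked windows and 35.2% of all one-strand windows.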
